A study of Homo sapiens with 8 samples.

Results

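Small nucleolar RNAs (snoRNAs) and small Cajal body RNAs (scaRNAs) were followed in Caco-2 cells across the 238 genes whose probe sets carry a single symbol that begins with SNORD, SNORA or SCARNA and a digit. The array table held 260 such probe sets, of 53617 probe sets and 22394 genes with 1 symbol in all. The 238 genes comprised 157 box C/D snoRNA genes (SNORD), 61 box H/ACA snoRNA genes (SNORA) and 20 scaRNA genes (SCARNA). A gene with several probe sets was counted once, by its brightest probe set over all arrays. A further 173 probe sets join a snoRNA or scaRNA symbol with other symbols and were not used here.

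RNA was isolated after 21 days from Caco-2, a line from a human colon carcinoma whose cells come to resemble enterocytes in a confluent layer. In the Transwell group the cells grew without flow on inserts with a membrane of 1.12 cm2, and in the gut-on-chip group they grew under medium that flowed at 100 µL/h. Both groups were seeded at 75000 cells/cm2, and 4 samples of each were hybridised to Affymetrix Human Gene 2.1 ST arrays. No agent, genotype or other cell type distinguished the groups, but device, flow, medium supply and the volume of lysis buffer at harvest changed together and cannot be told apart. Nothing in the labels states that the 4 samples of a group came from separate experiments, so p-values reflect the spread among these samples alone.

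Box C/D snoRNAs guide ribose methylation of ribosomal and spliceosomal RNA, and box H/ACA snoRNAs guide the conversion of uridine to pseudouridine, each inside a small particle with its own set of core proteins. The scaRNAs carry the same boxes but reside in Cajal bodies, where they guide modification of the spliceosomal small nuclear RNAs. In human cells most of these RNAs are cut from the introns of host genes after splicing, and a few are transcribed from promoters of their own. A probe set inside an intron also binds unspliced host RNA, so mature snoRNA and its precursor cannot be told apart here.

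All levels below are log2 values on the scale of the array summary, and differences are gut-on-chip minus Transwell on that log2 scale. A gene was called higher or lower where its limma false discovery rate (FDR), adjusted over all 53617 probe sets, was under 0.01. A gene was marked near background where its mean in both groups was at or below 2.09, the 90th percentile of 432 probe sets of olfactory receptors, a family that intestinal epithelium is not known for. By this mark 67 of the 238 genes were near background and 171 were not. Array medians over all probe sets lay between 2.46 and 2.49. Of 8 markers of intestinal epithelium, all had group means between 5.35 and 11.69, with VIL1, CDX2, CDH17 and ALPI called lower in the gut-on-chip and KRT18 called higher. Among markers of other cells, PTPRC, DCN and SNAP25 were near background and PDGFRB was at 3.36 and 2.75.

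The snoRNA and scaRNA genes that changed were mostly lower in the gut-on-chip. Of the 238 genes, 43 were called lower (18.1%), 4 were called higher (1.68%) and 191 were not called. Over all probe sets, 4.41% were called lower and 5.16% higher. All 47 called genes were among the 171 not near background, of which 25.1% were called lower, where 7% of all probe sets not near background were called lower and 8.24% higher. The median difference was -0.24 over the 238 genes and -0.42 over the 171, against -0.01 over all probe sets and 0.03 over those not near background, and 178 of the 238 differences were below 0. In 78 genes every gut-on-chip array lay below every Transwell array, and in 6 genes every one lay above, where 9.58% and 10.7% of all probe sets did so. In these whole-culture samples, fewer cells that make an RNA and less of it per cell cannot be told apart.

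The classes shared the direction of the change. Of the 157 box C/D genes, 22 were called lower and 1 higher, with a median difference of -0.21. Of the 61 box H/ACA genes, 16 were lower and 1 higher, with a median of -0.35. Of the 20 scaRNA genes, 5 were lower and 2 higher, with a median of -0.24. Of the box C/D genes 61 were near background, compared with 5 box H/ACA genes and 1 scaRNA gene. Among genes not near background, 22.9% of 96 box C/D, 28.6% of 56 box H/ACA and 26.3% of 19 scaRNA genes were called lower, with median differences of -0.42, -0.40 and -0.30. No test compared the classes.

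**Figure D1:**
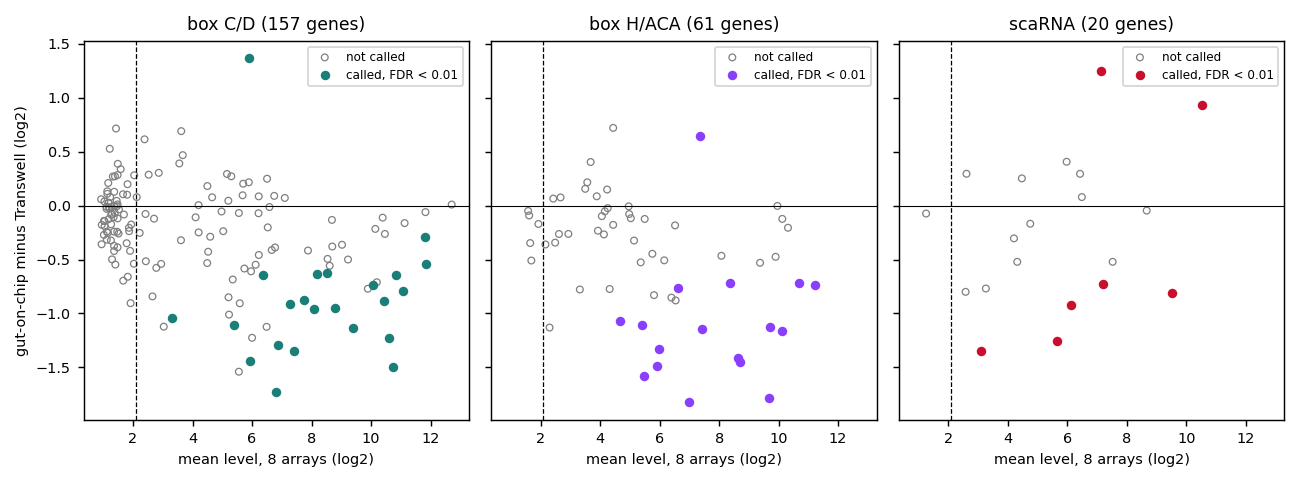
Difference between gut-on-chip and Transwell (log2, vertical axis) against the mean level over 8 arrays (log2, horizontal axis) for each box C/D, box H/ACA and scaRNA gene. Filled points are called at an FDR under 0.01, the dashed line marks the near-background level of 2.09, and nearly all filled points lie below 0 (43 of 47).

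Length, as annotated in RefSeq for 234 of the 238 genes, was shorter by median for box C/D genes than for the others. The medians were 81.5 nucleotides for box C/D, 134.5 for box H/ACA and 137.5 for scaRNA genes. The ranges overlapped, at 33 to 237, 122 to 236 and 125 to 421 nucleotides. Of the 134 genes shorter than 100 nucleotides 16 were called lower, and of the 100 genes of at least that length 27 were. Among those not near background the shares were 20.3% of 79 and 30.3% of 89. The longest scaRNAs, SCARNA17, SCARNA2 and SCARNA9L, had differences above 0, but SCARNA2 was not called (FDR 0.105). Of SCARNA10 and SCARNA7, both of 330 nucleotides, SCARNA10 fell and SCARNA7 differed by -0.05 (FDR 0.873).

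One gut-on-chip array stood apart from the other 3 in the box C/D class. Gut-on-chip replicate 3 was the highest of the 4 gut-on-chip arrays in 66 of 96 box C/D genes not near background (68.8%), in 16 of 56 box H/ACA genes (28.6%) and in 25.4% of all probe sets. Its median difference from the Transwell mean was -0.13 over these box C/D genes, where replicates 1, 2 and 4 had -0.55, -0.41 and -0.53. Over the box H/ACA genes the 4 medians were -0.28, -0.40, -0.47 and -0.46, and replicate 3 was the lowest gut-on-chip array in 16 of the 56 genes and replicate 4 in 24. Among the 16 box H/ACA genes called lower, replicate 3 was the highest gut-on-chip array in 8. Its median there was -0.99, where replicates 1, 2 and 4 had -1.15, -1.21 and -1.41. Among 19 scaRNA genes not near background it was the highest in 9, but its median of -0.59 was the lowest of the 4. Transwell arrays had medians between -0.03 and 0.03 over the box C/D and box H/ACA genes not near background. Without gut-on-chip replicate 3, 57 genes were called lower, 42 of them among the 43, while 3.85% of all probe sets were called lower. Box C/D genes made up the rise in that count, from 22 to 36, and box H/ACA genes stayed at 16.

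**Figure D2:**
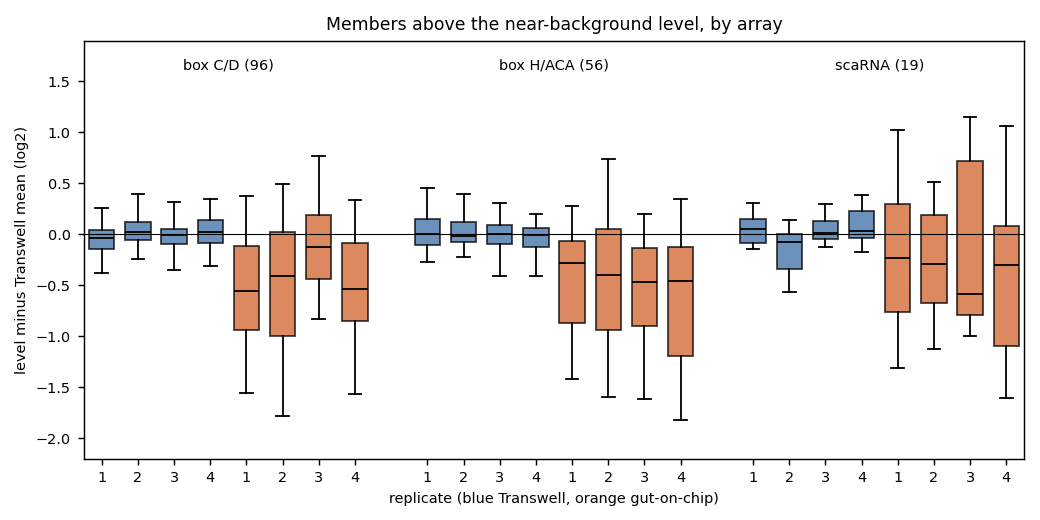
Level minus the Transwell mean (log2) of members not near background on each array, as boxes (quartiles, median line, whiskers from the 5th to the 95th percentile) over 96 box C/D, 56 box H/ACA and 19 scaRNA genes. Orange boxes of the gut-on-chip lie mostly below 0, and in the box C/D class replicate 3 lies nearest to it with a median of -0.13.

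The box H/ACA class held the 2 largest decreases. SNORA38B, in an intron of NOL11, was at 8.03, 7.98, 7.87 and 7.65 on the Transwell arrays and at 6.63, 5.73, 6.20 and 5.68 on the gut-on-chip arrays. The groups did not overlap, and the level was 3.54-fold lower in the gut-on-chip (difference -1.82, SE 0.20, FDR 0.000168). SNORA50A, in CNOT1, was at 10.58, 10.51, 10.52 and 10.63 on the Transwell arrays and at 9.01, 8.89, 8.62 and 8.56 in the gut-on-chip. Its Transwell arrays spanned a much narrower range than the gap between the groups, and the difference of -1.79 (SE 0.10) had the smallest FDR of the class, 3.39e-06. CNOT1, a scaffold of a deadenylase complex, differed by -0.12 (FDR 0.302).

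Further box H/ACA genes fell without overlap between the groups. SNORA14A, in POR, fell by 1.58 from 6.25 ± 0.14 to 4.67 ± 0.31 (SD, n = 4 each). SNORA37, in MBD2, fell by 1.49 from 6.64 ± 0.31 to 5.15 ± 0.27. SNORA33, which lies in the ribosomal protein gene RPS12, was at 9.26, 9.29, 9.41 and 9.40 against 8.10, 8.26, 7.49 and 7.86, a difference of -1.42 (FDR 0.000117). Every Transwell array of SNORA33 lay above every gut-on-chip array. SNORA23, in the importin gene IPO7, was one of the brightest of its class at 10.70, 10.62, 10.71 and 10.77 on the Transwell arrays and 9.65, 9.59, 9.54 and 9.35 in the gut-on-chip. Its 2.24-fold decrease (difference -1.17, SE 0.07, FDR 6.00e-06) rested on arrays that agreed closely within each group.

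Relatives of these genes by name had differences below 0 and were not called. SNORA38 differed by -0.45 (FDR 0.0785) on its brightest probe set and by -0.74 (FDR 0.0238) on another, SNORA14B by 1.78-fold in the same direction as SNORA14A (FDR 0.0105), and SNORA50C by 1.81-fold in that of SNORA50A (FDR 0.0118). Array probes can bind RNA of a gene with a similar sequence, and the sequences were not compared here, so the split of signal between such relatives is uncertain. Among copies of SNORA71, brightly measured in introns of SNHG17, SNORA71D fell by 0.71 (FDR 0.00411), whereas SNORA71A and SNORA71C differed by -0.12 and 0.00.

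For 2 of the genes that fell, probe sets of one gene disagreed. SNORA21, in the ribosomal protein gene RPL23, was at 9.40, 9.41, 9.42 and 9.44 on its brighter probe set in the Transwell group and at 8.26, 8.07, 7.95 and 7.60 in the gut-on-chip (difference -1.45, FDR 3.30e-05). Its dimmer probe set gave 4.04, 3.72, 3.71 and 3.76 against 4.12, 4.32, 4.33 and 4.18, a difference of 0.43 (FDR 0.0861). The brighter probe set separated the groups by over 1 unit, and the dimmer one pointed the other way. SNORA72, in RPL30, differed by -1.33 (FDR 0.00133) on its brighter probe set and by -0.29 (FDR 0.227) on a dimmer one that was near background.

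**Figure D3:**
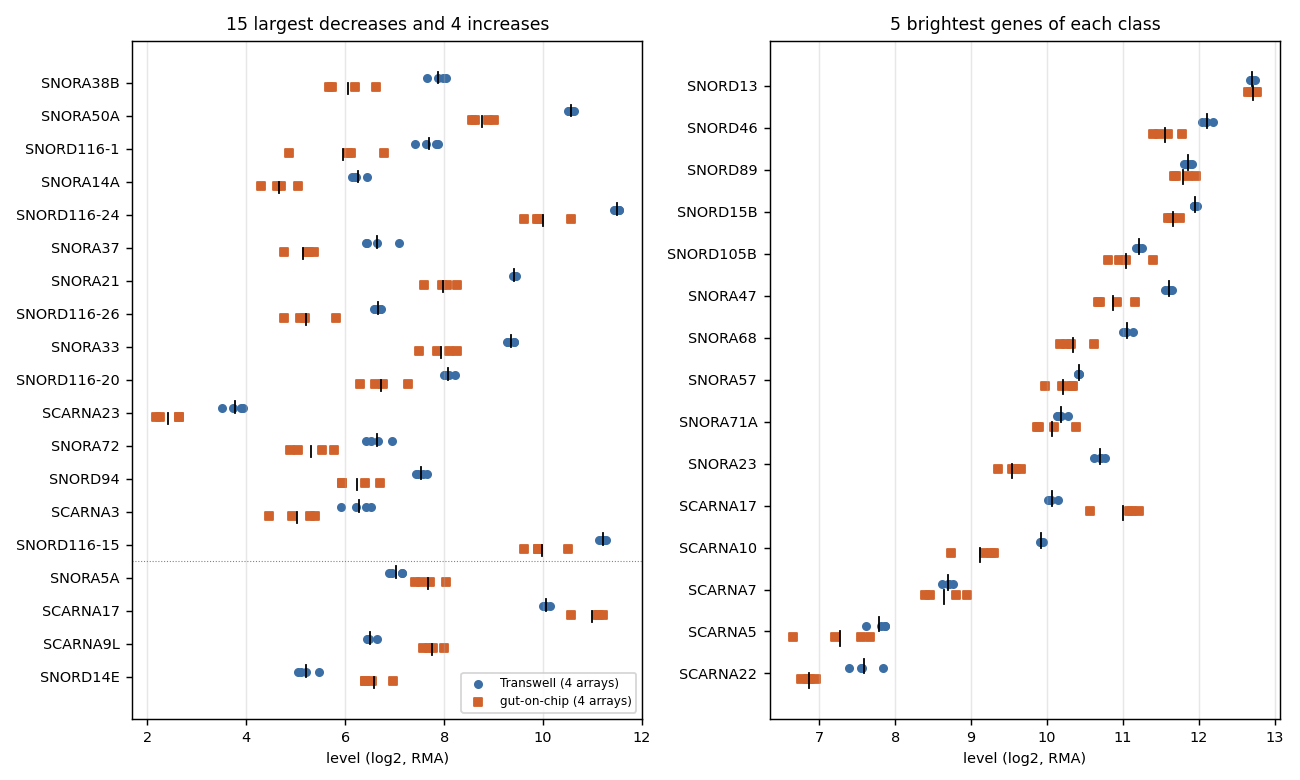
Levels (log2) of single arrays for the 15 largest decreases and the 4 increases (left) and for the 5 brightest genes of each class (right). Circles are 4 Transwell arrays, squares are 4 gut-on-chip arrays, and black ticks are group means, from SNORA38B, which fell by 1.82, to SNORD13, which differed by 0.01.

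Among box C/D genes called lower, the 4 largest decreases were those of SNORD116 copies. SNORD116 and SNORD115 are repeated families inside the long transcript SNHG14, which is expressed from the paternal copy of an imprinted region, is known mainly from neurons, and includes the SNORD116 copies missing in Prader-Willi syndrome. Of 18 SNORD116 genes 6 were called lower and none higher, with a median difference of -0.91 and differences from -1.73 to 0.39. The brightest was SNORD116-24, at 11.43, 11.54, 11.45 and 11.53 on the Transwell arrays and at 9.87, 9.62, 10.57 and 9.92 in the gut-on-chip. The groups did not overlap, gut-on-chip replicate 3 was the highest of its group, and the difference was -1.49 (SE 0.17, FDR 0.000195), a 2.81-fold decrease.

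The other 5 SNORD116 copies that were called also had no overlap between the groups. SNORD116-15 was at 11.20, 11.22, 11.13 and 11.28 against 9.91, 9.61, 10.50 and 9.90, a difference of -1.23. SNORD116-1 was at 7.41, 7.63, 7.84 and 7.88 against 6.11, 4.86, 6.78 and 6.07, a difference of -1.73 whose larger SE of 0.33 left it at an FDR of 0.00496, a call lost in 7 of 18 alternative fits. Gut-on-chip replicate 3 was again the highest of the gut-on-chip arrays in both. SNORD116-26, SNORD116-20 and SNORD116-14 fell by 1.44, 1.35 and 1.14. Gut-on-chip replicate 3 was the highest in 13 of the 15 SNORD116 genes not near background, and without it 9 of the 18 genes were called lower. SNORD116-21, bright at 7.06 and 7.14, was one copy that did not follow the others (difference 0.07, FDR 0.863). The copies resemble one another in sequence, so they are not independent measurements.

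**Figure D4:**
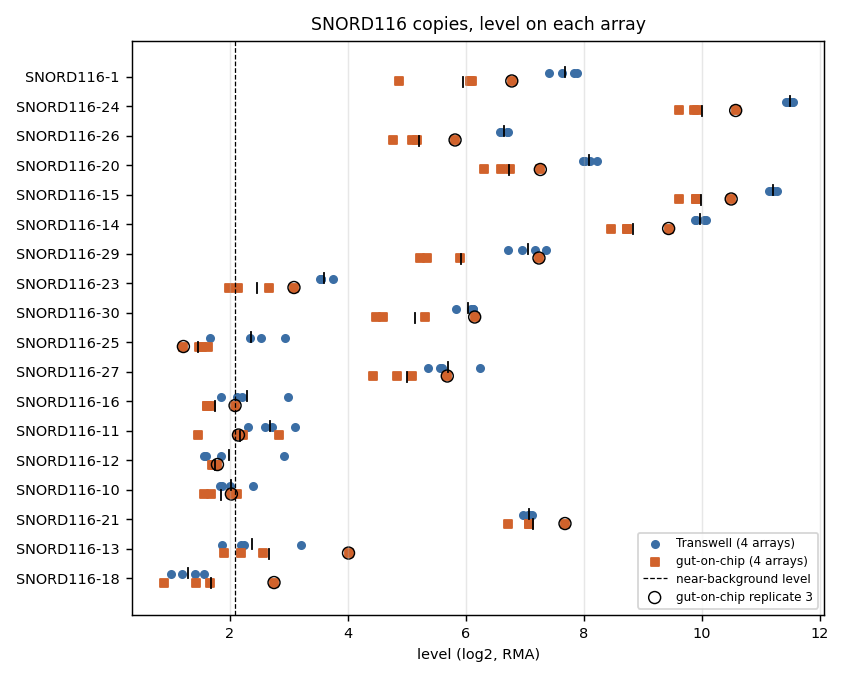
Level (log2) of each of the 18 SNORD116 genes on each array, with circles for 4 Transwell arrays, squares for 4 gut-on-chip arrays, black ticks for group means and a ring around gut-on-chip replicate 3. The dashed line is the near-background level of 2.09, and 6 copies with non-overlapping groups were called lower.

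SNORD115, the neighbouring family, whose members can pair with the serotonin receptor transcript HTR2C, was dimmer. Of 25 SNORD115 genes 16 were near background, none was called, and the median difference was -0.39. In 10 of the 25 all gut-on-chip arrays lay below all Transwell arrays, where 9.58% of all probe sets did so. Among these 10, SNORD115-8, SNORD115-14, SNORD115-15, SNORD115-41, SNORD115-45 and SNORD115-47 were near background. SNORD115-30 was at 6.28, 6.40, 6.35 and 6.27 against 4.66, 3.83, 5.90 and 4.76, so the groups did not overlap, but the spread in the gut-on-chip left its difference of -1.54 at an FDR of 0.0121. Without gut-on-chip replicate 3, SNORD115-30 and SNORD115-27 were called lower (FDR 0.00043 and 0.000709). The imprinted families of chromosome 14 gave little signal, with all 9 SNORD113 genes and 28 of 31 SNORD114 genes near background and none called. Their median differences were -0.02 and 0.03. SNORD114-27 was an exception in level, at 4.41 and 4.59, and was not called (difference 0.18, FDR 0.485).

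Outside these 4 families, 16 of 74 box C/D genes were called lower and 1 higher, with a median of -0.26. SNORD94, in PTCD3, which guides methylation of the spliceosomal U6 RNA, was at 7.43, 7.66, 7.48 and 7.57 against 6.39, 5.94, 6.70 and 5.93, a difference of -1.29 (FDR 0.000496). SNORD8, bright at 11.47, 11.42, 11.46 and 11.52 against 10.76, 10.38, 11.00 and 10.54, fell by 0.79 (FDR 0.000959), and SNORD9 fell by 0.91 (FDR 0.00483). None of these genes overlapped between groups. SNORD8 and SNORD9 are also guides for U6, as are SNORD7 and SNORD67, which were not called (differences -0.25, FDR 0.487, and -0.43, FDR 0.0841), and these guides were singled out after their values were seen. SNORD12B, a box C/D snoRNA of the noncoding host ZFAS1, fell by 0.95 from 9.25 ± 0.05 to 8.30 ± 0.13 (SD, n = 4 each, FDR 2.39e-05). Its neighbours SNORD12 and SNORD12C differed by -0.38 (FDR 0.0506) and -0.42 (FDR 0.0165) and were not called.

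Of the 5 brightest box C/D genes 2 were called lower. SNORD13, a snoRNA with a promoter of its own that is needed for acetylation of the small ribosomal RNA, was the brightest of all at 12.68, 12.74, 12.71 and 12.69 in the Transwell group and 12.75, 12.65, 12.76 and 12.69 in the gut-on-chip. The groups overlapped throughout (difference 0.01, SE 0.04, FDR 0.926). SNORD89 differed by -0.06 (FDR 0.677) and SNORD105B by -0.16 (FDR 0.412), with overlapping groups. SNORD46 fell by 0.55, from 12.11 ± 0.06 to 11.56 ± 0.16 (FDR 0.000974). SNORD15B, in RPS3, fell by 0.29 (FDR 0.00221), a 1.22-fold decrease that passed because its Transwell arrays lay between 11.93 and 11.98 and that was lost in 4 of 18 alternative fits. Among the brightest box H/ACA genes, SNORA47 and SNORA68 fell by 0.74 and 0.71, whereas SNORA57 and SNORA71A differed by -0.20 (FDR 0.128) and -0.12 (FDR 0.546).

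The scaRNAs moved in both directions. SCARNA23, in POLA1, was low, at 3.94, 3.74, 3.89 and 3.51 against 2.25, 2.64, 2.63 and 2.17, and fell by 1.35 without overlap (FDR 0.000723). SCARNA3, in COP1, fell by 1.26 (FDR 0.00248). SCARNA10, which carries both kinds of box and guides modification of the spliceosomal U5 RNA, was at 9.92, 9.92, 9.95 and 9.90 against 9.26, 9.30, 9.17 and 8.73, a difference of -0.81 (FDR 0.000835). The 4 Transwell arrays of SCARNA10 were nearly equal, and every gut-on-chip array was lower. SCARNA4 fell by 0.92 and SCARNA22, in NSD2, by 0.73. SCARNA7 and SCARNA5, also among the brightest, differed by -0.05 (FDR 0.873) and -0.52 (FDR 0.111) with overlapping groups.

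The 4 genes that rose were led by SNORD14E. SNORD14E is one of the U14 snoRNAs, known from yeast for a role in making the small ribosomal RNA, and lies in HSPA8, which encodes a constitutive heat shock chaperone. Its levels were 5.47, 5.04, 5.22 and 5.11 on the Transwell arrays and 6.40, 6.55, 6.97 and 6.40 in the gut-on-chip. The groups did not overlap, and the difference was 1.37 (SE 0.15, FDR 0.0002), a 2.58-fold rise. SNORD14A, another U14 copy that lies in RPS13, differed by 0.09 (FDR 0.636). HSPA8 has no probe set with a single symbol, so the host was not analysed here.

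Of the other genes that rose, SCARNA9L resembles SCARNA9, a guide for the spliceosomal U2 RNA, and lies in EIF1AX. It was at 6.44, 6.65, 6.47 and 6.46 against 7.56, 7.69, 7.99 and 7.78, a difference of 1.25 (SE 0.10, FDR 3.03e-05), while EIF1AX differed by 0.12 (FDR 0.388). SCARNA17, the brightest scaRNA, was at 10.01, 10.15, 10.06 and 10.03 against 11.08, 10.57, 11.21 and 11.13, a difference of 0.94 (FDR 0.000556). Neither gene had overlapping groups, and gut-on-chip replicate 2 was the lowest gut-on-chip array of SCARNA17. SNORA5A, in TBRG4, rose by 0.65 (FDR 0.00799) from 7.03 ± 0.14 to 7.68 ± 0.27, and its call was lost in 10 of 18 alternative fits. SCARNA2, transcribed from its own promoter and a guide for U2, differed by 0.41 with overlapping groups (FDR 0.105).

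The genes that contain the snoRNAs were compared with their members. A gene that contains the member and has a probe set of its own was found for 152 members, in 93 host genes. Of these hosts 21 were called higher (22.6%) and 6 lower (6.45%), with a median difference of 0.23, where 8.72% of all genes with 1 symbol were called higher and 7.06% lower. Not near background were 89 of the 93 hosts, and of the 16730 such genes with 1 symbol 1952 were called higher and 1578 lower. Of 30 members called lower with a measured host, 29 lay below the difference of their host, with a median of -0.95 for the members and 0.11 for the hosts, and the host was called higher in 4 of these 30 pairs, lower in 1 and not called in 25. The members of these pairs were chosen by their calls, so these counts are a description. Over all 104 pairs outside the 4 families and not near background, 88 members lay below their host. Across these pairs, which share hosts (85 in all), Pearson's r was 0.203 and Spearman's rho 0.224, as a description across genes.

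**Figure D5:**
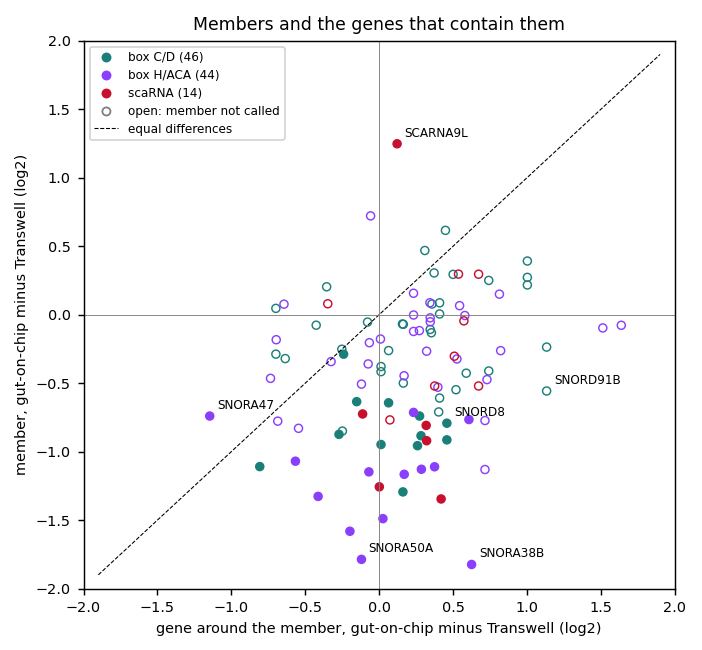
Difference (gut-on-chip minus Transwell, log2) of each of 104 members not near background against the difference of the gene that contains it, with filled points for called members. Points lie mostly below the dashed line of equal differences (88 of 104).

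Single hosts showed the separation in detail. NOL11, a ribosome biogenesis factor that contains SNORA38B, rose by 0.62 (FDR 0.000687) while SNORA38B fell by 1.82. CHD8, a chromatin remodeler, rose by 0.46 (FDR 0.00785) while both SNORD8 and SNORD9 in its introns fell. TSR1, a ribosome maturation factor, rose by 1.13 (FDR 7.83e-06), with SNORD91A and SNORD91B at -0.24 (FDR 0.477) and -0.56 (FDR 0.0526). NOP58, itself a core protein of box C/D particles, rose by 1.00 and contains SNORD11, SNORD11B and SNORD70, whose differences of 0.22, 0.39 and 0.27 were all above 0 but not called. ZBED3, which contains SNORA47, was the one host called lower around a member called lower, with a decrease of 1.15 (FDR 0.00182). SNHG18 and DANCR, around SNORD123 and SNORA26, differed by -0.81 (FDR 0.0224) and -0.57 (FDR 0.0419). These 2 hosts were not called, whereas both members were called lower. In GNL3, whose own level was not analysed here, SNORD69 fell by 0.65 (FDR 0.00526), whereas SNORD19 differed by 0.69 (FDR 0.0300) with all gut-on-chip arrays above all Transwell arrays.

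The start sites of 4 hosts of members that fell are printed because many snoRNA hosts are known to begin with a run of pyrimidines, the mark of genes whose translation follows growth signals. Each window holds 10 bases before and 20 bases from the annotated start, 5′ to 3′ on the strand of the gene, from RefSeq on GRCh38.p14. Capitals mark the unbroken run of C and T that begins at the start, which RPS12 and IPO7 have and NOL11 and PTCD3 lack. The windows lie at chr6:132814559-132814588 on the plus strand for RPS12, chr11:9384642-9384671 on the plus strand for IPO7, chr17:67717926-67717955 on the plus strand for NOL11 and chr2:86106225-86106254 on the plus strand for PTCD3.
RPS12: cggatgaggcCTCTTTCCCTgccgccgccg
IPO7: gcttctctttCCTTTCgcgccggttgccgc
NOL11: gccgtacttaggtttgctcaaaatggcagc
PTCD3: catgctctgcagagaaatcaaagatggcgg

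A start at C followed by 4 bases that are each C or T, read on the gene's own strand, was found in 23 of 96 hosts outside the 4 families with a sequence (24.0%) and in 1404 of 27305 genes (5.14%). It was found in 9 of 25 hosts of members called lower (36.0%) and in 13 of 60 hosts of members not near background and not called (21.7%). The second set leaves out hosts that also contain a called member. SNORA33 in RPS12, which has such a start, and SNORA38B in NOL11, which has none, both fell. The promoter of HSPA8, around the only box C/D gene called higher, holds 2 matches to GAANNTTC and was looked at after that rise was seen. This inverted pair of units of the heat shock element reads the same on both strands and was found in 8.21% of promoters of the same length. It was found in 6 of 96 hosts outside the 4 families (6.25%) and in 2 of 25 hosts of members called lower (8.0%). The match nearer to the start is printed in capitals within chr11:123062153-123062212 on the minus strand.
HSPA8: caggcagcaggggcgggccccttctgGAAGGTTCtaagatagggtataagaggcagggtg
These letters are a description of the sequence and not of binding.

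Transcripts of the proteins that build, carry and trim these particles were taken as the other side of the pathway. Protein levels were not measured. Of 39 such genes 17 were called higher in the gut-on-chip and none lower, with a median difference of 0.49, and 25 had all gut-on-chip arrays above all Transwell arrays. Called higher were 43.6% of these genes, 8.72% of all genes with 1 symbol and 8.24% of probe sets not near background. Among the 16730 genes with 1 symbol not near background, 1952 were called higher. Groups did not overlap in this direction in 3813 of the 22394 genes with 1 symbol and in 10.7% of all probe sets. Under an unadjusted p of 0.05, 28 of the 39 were higher and 1 lower, where 4462 and 3553 of the 22394 genes with 1 symbol were. Of the 3 box C/D core protein genes analysed, which did not include NOP56, NOP58 rose by 1.00 from 9.25 ± 0.08 to 10.25 ± 0.08 (SD, n = 4 each). SNU13 rose by 0.72 (FDR 0.00229). FBL, the methyltransferase of the particle, differed by -0.08 with overlapping groups (FDR 0.594). Of the 3 box H/ACA core protein genes analysed, which did not include DKC1, NOP10 rose by 0.58 (FDR 0.0052). NHP2 and GAR1 differed by 0.49 (FDR 0.0409) and 0.89 (FDR 0.0263) and were not called.

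Assembly and trafficking factors made up most of the increases. NOLC1, a chaperone that moves particles between nucleolus and Cajal body, was at 8.01, 8.22, 8.19 and 8.13 against 9.82, 9.61, 9.79 and 9.79, a difference of 1.61 (FDR 1.26e-06). The groups were separated by over 1 unit. Of 12 assembly factors 8 rose, among them NOPCHAP1 by 1.13, ZNHIT6 by 1.01 and NUFIP1 by 0.88. NAF1 and SHQ1, assembly factors of box H/ACA particles, rose by 0.55 and 0.51. Of 11 trafficking protein genes 5 rose, including that of the export receptor XPO1 by 0.86. Coilin (COIL), the scaffold of Cajal bodies, differed by 0.35 (FDR 0.0606). Of 11 end processing genes, the deadenylase PARN and the exosome nuclease DIS3 rose by 0.83 and 0.61, and the debranching enzyme DBR1 differed by 0.17 (FDR 0.358). Leaving out gut-on-chip replicate 3, or any single Transwell array, reduced the 17 to 10.

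Other short noncoding RNAs on the same arrays were counted in the same way, and no test compared them with the snoRNAs. Of 1202 such genes, 1009 of them microRNAs, 14 were called lower and 9 higher, with a median difference of -0.04. Of those not near background 2.77% were called lower, with a median of 0.04. Of 143 genes named as spliceosomal and related small nuclear RNAs, 101 were near background, 4 were called lower and none higher. Of the 42 not near background 7.14% were lower, with a median of -0.08. Many of the 143 symbols end in P, the mark of a pseudogene, so these shares do not describe functional RNAs alone. Some bright genes of this class fell, with RNU4ATAC at 10.06, 10.20, 10.01 and 10.20 against 8.50, 8.46, 8.46 and 7.47 (difference -1.89, FDR 0.000166). RNU5B-1 fell by 1.54 (FDR 0.00414) and RNU5E-1 by 0.88 (FDR 0.000742). Other bright genes were not called, with differences of -0.17 for RNU5A-8P (FDR 0.311), 0.42 for RNU11 (FDR 0.487) and -0.40 for RNU6ATAC (FDR 0.180). The vault RNAs VTRNA1-1 and VTRNA1-3 rose by 1.13 (FDR 0.00914) and 1.08 (FDR 0.00544). RNY4P19, named as a Y RNA pseudogene, rose by 2.69 (FDR 5.86e-06). RN7SK, which binds a transcription elongation factor, differed by 0.15 (FDR 0.173). The column kits named for RNA isolation are known to hold short RNAs less well than long ones, and volumes of lysate differed between the groups. The part of RNA isolation in these differences was not tested.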

How the data were processed

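RNA of 8 Caco-2 samples was labelled and hybridised to Affymetrix Human Gene 2.1 ST arrays. Probe intensities were corrected for background, normalized between arrays and summarised by the authors with RMA (no version is named in the sources used here), and the deposited values are log2 levels. RMA equalizes the distribution of each array, so a change in the total of all RNA cannot be seen. The methods describe probe sets redefined by gene, whereas the table holds 53617 probe sets of another summarisation, with no genome build. Symbols came from the platform annotation, with 23870 probe sets of 1 symbol, 1848 of several and 27899 of none. Entrez identifiers updated 22560 of the first kind, and 0 columns of other samples were present.

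Groups were compared with limma 3.58.1 in R 4.3.3 by linear models, as in the methods, and no block was fitted. Variances were moderated with a prior that followed mean level (loess, span 0.3), with 3.88 prior and 6 residual degrees of freedom and a median residual SD of 0.227. P-values were two-sided and adjusted over all probe sets by the Benjamini-Hochberg method. Arrays hold no detection calls and their number limits the precision. Hosts were the smallest RefSeq gene whose span contains the member, or a gene from a hand-written list. Genes named LOC or LINC, or with a suffix for antisense, overlapping, divergent or intronic transcripts, were used only where no other gene contained the member. Strand was not checked because the tables give none for members, so some pairs may join a member with a gene that is not its host. Sequences were read from RefSeq promoters (GRCh38.p14), which held 96 of 122 hosts.

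Genes were named by a rule that took the 15 largest changes in each direction among calls without overlap, the 5 brightest of each class, genes with known roles, called copies of the imprinted families, genes whose probe sets disagree, and their hosts. Relatives, members that share a host and the U6 guides were added after their values were seen, as were the lengths, the start sites and the counts by array. The members, lists and rule were chosen with earlier results of these data known. SNORD3A, SNORD118, SNORA73A and other genes of the known roles list have no probe set with a single symbol and were not analysed here. Alternatives were another moderation, normalization, filter, choice of probe set, threshold, array weights, a replicate block and each array left out in turn.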

Additional observations from a re-analysis of the deposited data

Results flagged for a closer look

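In 5 of 106 groups of 4 arrays, taken over the named genes and the called protein genes, 1 array lay far from the other 3 relative to the range of its group. Chance alone gives such an array in about 1 of 20 groups. SCARNA9L was at 6.65 in Transwell replicate 2, with the other Transwell arrays between 6.44 and 6.47. SNORD14A was at 7.02 in gut-on-chip replicate 4, with the others between 6.71 and 6.72. SNORD15B was at 11.98 in Transwell replicate 2, with the others between 11.93 and 11.94. ZNHIT6 was at 5.24 in Transwell replicate 4, with the others between 4.87 and 4.93. NOLC1 was at 9.61 in gut-on-chip replicate 2, with the others between 9.79 and 9.82.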

How the results depend on the processing

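No called difference among the named genes was reversed in any alternative that was run, while SNORD13, SNORD89 and SCARNA7, which were not called, took values on both sides of 0. Of 648 values of 36 named genes, 624 stayed on their side of the threshold and 24 were weaker: 10 of SNORA5A, 7 of SNORD116-1, 4 of SNORD15B, 2 of SCARNA3 and 1 of SNORD46. The 43 lower genes became 33 in limma without a trend and 63 when only probe sets with 1 symbol were tested, where 33 and 43 of the 43 were shared. At an FDR under 0.05 there were 70. Box C/D genes called higher were 2 with only probe sets of 1 symbol and 3 at an FDR under 0.05, and those called lower were 13 without a trend, 37 with only probe sets of 1 symbol and 41 at an FDR under 0.05. Box H/ACA genes called higher were 0 without a trend, with quantile normalization run again and with the replicate block. Hosts called lower were 12 with only probe sets of 1 symbol and 13 at an FDR under 0.05. Other short RNA genes called higher were 18 and 22 under these settings, and those called lower were 27 at an FDR under 0.05. The cause of these shifts was not tested. Same-numbered arrays did not deviate together (r between -0.04 and 0.00), so numbers were not read as pairs. With the replicate block, 36 genes were lower (35 shared), the protein genes called higher were 10 and the other short RNA genes called lower were 8. With each array left out in turn, lower genes were 32 to 57 and higher genes 3 to 4, box C/D genes 12 to 36 lower and 1 to 2 higher, box H/ACA genes 14 to 16 lower and 0 to 1 higher, scaRNA genes 4 to 6 lower and 2 higher, protein genes 10 to 13 higher, hosts 4 to 8 lower and 14 to 21 higher, and other short RNA genes 8 to 13 lower and 4 to 12 higher. The box C/D count was 12 without Transwell replicate 2, 14 without Transwell replicate 4 and 36 without gut-on-chip replicate 3. Centring on olfactory receptor probe sets moved the median of all probe sets by 0.064, and 37 genes stayed lower. Near-background genes numbered 56 and 75 with the 75th and 95th percentile of those probe sets.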
